A study of Mus musculus with 6 samples.

Results

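Amino acids cross membranes through solute carriers, and the genes of these amino acid transporters were followed here in mouse embryonic stem cells treated with RNA interference against the long noncoding RNA Panct1. The genes were chosen by symbol: those of the 7 solute carrier families Slc1, Slc3, Slc6, Slc7, Slc36, Slc38 and Slc43, each represented by the probe set with the highest mean signal among the sets assigned to that gene alone. This gave 57 genes of the 18193 genes measured. Symbols that end in a letter, such as Slc6a20a and Slc6a20b, fall outside this choice. The choice used no difference between the groups. The tested cells were Oct4-Gip embryonic stem cells, known as a line with a reporter and drug resistance cassette under Oct4 control, transfected with an esiRNA, an enzymatically cut pool of short double-stranded RNAs, against Panct1. Their controls were the same cells transfected with an esiRNA against Luciferase, a gene absent from the mouse. Each group had 3 arrays of RNA taken 72 hours after 60000 cells received 800 ng of esiRNA. Both groups were cultured with serum, LIF and added nonessential amino acids. All values come from a single cell line.

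Cells combine several kinds of carrier. Slc7 light chains pair with a heavy chain of the Slc3 family and exchange one amino acid for another, while Slc1, Slc6 and Slc38 carriers use the sodium gradient and Slc36 carriers use protons. Large neutral amino acids such as leucine enter through Slc7a5 and through the Slc43 carriers and feed the growth kinase mTORC1, and shortage of amino acids activates the kinase GCN2 and the transcription factor ATF4, which raises transcription of several carriers. Mouse embryonic stem cells are known for a strong demand for threonine and glutamine. Several Slc6 members carry neurotransmitters, creatine or taurine rather than the amino acids of protein.

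All values are log2 RMA signals, in which a difference of 1 is a doubling. Signals of different probe sets are not comparable as amounts, and no filter on low signals was used, so all 57 genes were tested. The median of each array lay between 6.07 and 6.09 and the lower quartile between 4.65 and 4.7, and a mean below that quartile is called dim here. Array pairs within a group correlated at 0.997 to 0.998 and pairs across groups at 0.991 to 0.993. The labels do not say that replicates were separate cultures, so the p-values take in the scatter of these 6 arrays alone, which may be technical. No probe set is named as Panct1, so its depletion was not assessed. Markers count as higher or lower here when past the adjusted limma threshold of 0.05 described below. Of all genes, 12.9% were higher and 11.3% lower by that threshold. All 8 embryonic stem cell markers were well above the quartile, and 5 of them were lower in knockdown. Their summed level was 16.05 to 16.08 in knockdown and 16.19 to 16.23 in control. Of 8 trophectoderm markers 7 were higher, with a summed level of 13.22 to 13.41 in knockdown and 11.42 to 11.55 in control, and Elf5 was dim in both groups. Each sum adds unlogged signals, so the brightest sets weigh most, here Krt8 and Krt18, which rose by 2.28 and 2.22. Krt7 rose by 1.93, Tfap2c by 1.00, Cdx2 and Gata3 by 0.77 each and Eomes by 0.49. Fibroblast markers, for feeder cells, summed to 9.04 to 9.12 in knockdown and 8.98 to 9.04 in control, with 2 of 8 higher and Lum dim. Those fibroblast ranges overlapped at their ends. Primitive endoderm markers summed to 9.83 to 9.96 in knockdown and 10.05 to 10.21 in control, with 1 of 8 higher and 3 lower. The part of these marker differences in the transporter values was not tested. In bulk RNA a change in the share of a cell type and a change in RNA per cell cannot be told apart.

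Among the 57 transporter genes, 10 were higher and 4 lower in Panct1 knockdown, and 43 did not pass, in limma's moderated test adjusted over all genes by Benjamini-Hochberg with a threshold of 0.05. That is 24.6% of the members, beside 24.2% of all genes and 24.3% of 251 other Slc genes, a share near the background and so not a result about the transporters. By direction, 17.5% of members were higher and 7.02% lower, beside 12.9% and 11.3% of all genes. Of all 116 probe sets of the members 17 passed (14.7%, beside 14.6% of 45037 probe sets), and no gene past the threshold had another set that passed in the opposite direction. The median log2 difference was 0.03 over the members and -0.02 over all genes. Knockdown and control arrays stood fully apart for 19 members (33.3%, beside 38.3% of all genes), which include all 14 that passed. A change of at least 1.5-fold was found for 4 members, Slc1a4, Slc6a13 and Slc7a8 upward and Slc6a8 downward (7.02%, beside 6.74% of all genes).

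**Figure D1:**
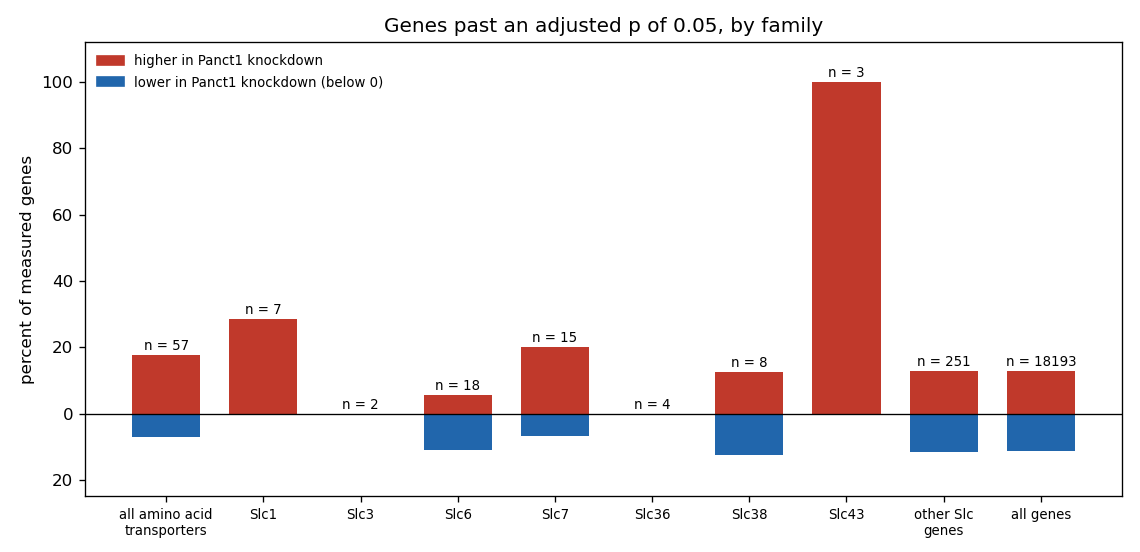
The bars give the percent of measured genes past an adjusted p of 0.05 in limma, higher in Panct1 knockdown above 0 and lower below 0, for all 57 transporter genes, each family, 251 other Slc genes and all 18193 genes. Slc43 has 3 of 3 genes higher, Slc3 and Slc36 have none past the threshold, and the transporters as a whole have 10 higher and 4 lower.

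All 3 measured Slc43 genes rose. Slc43a1 encodes LAT3 and Slc43a2 encodes LAT4, which carry leucine, phenylalanine and other large neutral amino acids without sodium, and Slc43a3 is a relative that carries purine nucleobases such as adenine, not amino acids. Slc43a3 had log2 signals of 7.22, 7.2 and 7.21 in knockdown, against 6.76, 6.73 and 6.83 in control. The knockdown arrays lay close together and all above the controls. The log2 difference was 0.44 with an SE of 0.06 (3 arrays in each group, limma adjusted p = 9.71e-04). Slc43a2 had 7.65, 7.76 and 7.74 in knockdown, against 7.46, 7.3 and 7.38 in control, a difference of 0.34 (SE 0.07, limma adjusted p = 0.00725). Its second probe set rose by 0.45, and a dim one differed by 0.02. Slc43a1 had 8.17, 8.19 and 8.27 in knockdown, against 7.84, 8.04 and 7.71 in control, a difference of 0.35 (SE 0.09, limma adjusted p = 0.0208). The controls of Slc43a1 were the more scattered group, and its call was lost without knockdown replicate 2 or 3 or control replicate 1 or 3, with adjusted p up to 0.0698. A family of 3 is too small for a share to be read against the background.

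Slc6a8, the creatine transporter, fell more than any other member. It had 9.35, 9.2 and 9.2 in knockdown, against 9.99, 9.93 and 9.99 in control, and fell by 0.72 in log2 signal with an SE of 0.07 (limma adjusted p = 1.24e-04). Its second probe set had 8.99, 9.07 and 8.78 in knockdown, against 9.41, 9.35 and 9.38 in control, and fell by 0.43. Both sets put every knockdown array below every control array. Slc6a15, a carrier of branched-chain amino acids and proline known from neurons, had 8.39, 8.73 and 8.66 in knockdown, against 8.95, 8.85 and 9.06 in control, and fell by 0.36 (SE 0.10, limma adjusted p = 0.0284). This call was lost without knockdown replicate 1 or control replicate 1 or 3, with adjusted p up to 0.0929. Slc6a13, the GABA transporter GAT2, moved the other way, with 6.3, 6.59 and 6.42 in knockdown, against 5.65, 6 and 5.8 in control, a rise of 0.62 (SE 0.11, limma adjusted p = 0.00288). Its lowest knockdown array stood above its highest control array.

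The other 15 Slc6 genes did not pass. The brightest was Slc6a6, the taurine transporter, with 11.88, 11.7 and 11.65 in knockdown, against 11.95, 11.84 and 11.95 in control. Its groups overlapped, and the difference of -0.17 had a 95% interval of -0.35 to 0.01 (limma adjusted p = 0.158). All 4 of its probe sets differed downward, by -0.17 to -0.22, without passing, and the mean of the sets passed at -0.19 (limma adjusted p = 0.0357), as did the fit with array weights at -0.21 (0.0392). Slc6a9, the glycine transporter GlyT1, differed by -0.04 and Slc6a17, a vesicular carrier of neutral amino acids, by 0.08. The monoamine carriers Slc6a2, Slc6a3 and Slc6a4, of noradrenaline, dopamine and serotonin, differed by 0.00, 0.13 and 0.04. Slc6a5, Slc6a7, Slc6a11, Slc6a12, Slc6a14, Slc6a16, Slc6a18, Slc6a19 and Slc6a21 had differences from -0.25 to 0.03, and Slc6a14 was dim in both groups. Of these Slc6a16, with the difference of -0.25, came nearest to the threshold (limma adjusted p = 0.0582). Every knockdown array of Slc6a16 lay below every control array, and its knockdown mean was dim. It passed without knockdown replicate 2 and when each gene was the mean of its probe sets.

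The heavy chains of the exchangers did not pass. Slc3a2, the CD98 heavy chain that brings most Slc7 light chains to the surface, had 11.57, 11.84 and 12.09 in knockdown, against 11.82, 11.67 and 11.87 in control. Knockdown replicate 1 was the lowest of the 6 arrays and knockdown replicate 3 the highest, and the difference of 0.05 had a 95% interval of -0.23 to 0.33 (limma adjusted p = 0.833). Slc3a1, the heavy chain of the renal cystine carrier, was near the lower quartile and differed by 0.03.

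Among the light chains Slc7a7, Slc7a8 and Slc7a9 rose, and the others did not pass. Slc7a7, the y+LAT1 chain that exports cationic amino acids in exchange for neutral ones, had 10.63, 10.69 and 10.62 in knockdown, against 10.26, 10.27 and 10.24 in control. Its replicates were the tightest of the bright light chains, and it rose by 0.39 (SE 0.06, 3 arrays each, limma adjusted p = 0.00159). The second probe set had 8.88, 8.82 and 8.69 in knockdown, against 8.33, 8.55 and 8.34 in control, also a rise of 0.39. Slc7a6, the y+LAT2 chain with a closely related activity, had 10.57, 10.16 and 10 in knockdown, against 10.23, 10.37 and 10.3 in control. Here knockdown replicate 1 was the highest of all arrays and the groups overlapped, with a difference of -0.06 (95% interval -0.35 to 0.24, limma adjusted p = 0.807). The second Slc7a6 set differed by 0.03. Slc7a5, the LAT1 chain for leucine and other large neutral amino acids, had 11.25, 11.63 and 11.85 in knockdown, against 11.64, 11.5 and 11.65 in control. It differed by -0.02 (95% interval -0.33 to 0.29, limma adjusted p = 0.939).

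Slc7a8, the LAT2 chain, had 5.27, 5.16 and 4.72 in knockdown, against 4.41, 4.56 and 4.32 in control, a rise of 0.62 (SE 0.14, limma adjusted p = 0.0101). Its control mean of 4.43 was dim, so the size is measured against background. Slc7a9, which pairs with Slc3a1 in the kidney, had 5.39, 5.33 and 5.31 in knockdown, against 4.91, 5.22 and 5.04 in control, a rise of 0.29 (SE 0.08, limma adjusted p = 0.0381). That call was lost without knockdown replicate 1, 2 or 3 or control replicate 1 or 3, with adjusted p up to 0.132, and when adjusted over all probe sets (0.0632). Slc7a11, the cystine and glutamate exchanger xCT, was dim in both groups, with 3.92, 3.78 and 4.22 in knockdown, against 3.89, 3.93 and 3.69 in control. Slc7a10 differed by 0.04, Slc7a13 by -0.16 and Slc7a15 by -0.11 without passing, and Slc7a12 was dim in both groups.

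**Figure D2:**
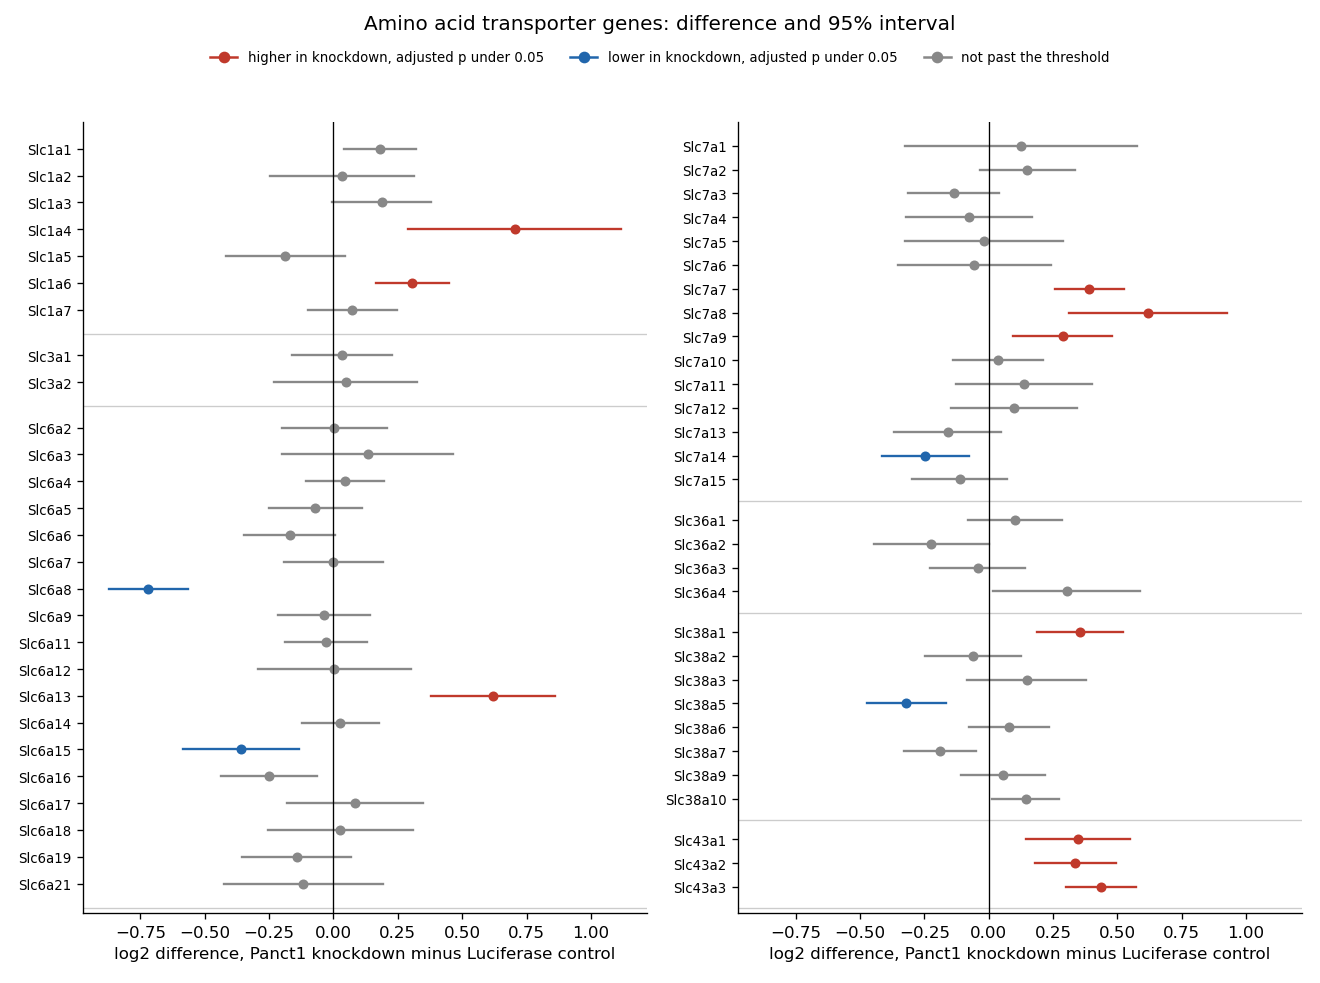
Points give the log2 difference, Panct1 knockdown minus Luciferase control, and lines its 95% interval for each of the 57 transporter genes, grouped by family, with 3 arrays per group. Red and blue mark the 10 higher and 4 lower genes past the threshold, from -0.72 for Slc6a8 to 0.70 for Slc1a4, and grey the other 43.

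Slc7a1, Slc7a2 and Slc7a3, the carriers of lysine and arginine, did not pass on all arrays. Slc7a3, the brightest Slc7 gene, had 11.57, 11.73 and 11.77 in knockdown, against 11.86, 11.73 and 11.89 in control, and differed by -0.14 (95% interval -0.31 to 0.04, limma adjusted p = 0.256). Slc7a1, the widely expressed CAT1, had 9.72, 10.44 and 10.54 in knockdown, against 10.27, 9.89 and 10.16 in control. Knockdown replicate 1 was the lowest array and replicates 2 and 3 the highest, and the difference of 0.13 had a 95% interval of -0.32 to 0.58 (limma adjusted p = 0.71). Without knockdown replicate 1, Slc7a1 passed at 0.38 (SE 0.11, limma adjusted p = 0.0458). That array was the knockdown array furthest from the others in this gene, so passing without it is no separate test. Without any other single array Slc7a1 did not pass, with limma adjusted p from 0.612 to 0.97. Slc7a2 differed by 0.15 and Slc7a4, whose transport activity is uncertain, by -0.08. Slc7a14, a lysosomal relative, was dim, with 4.27, 4.19 and 4.23 in knockdown, against 4.46, 4.6 and 4.37 in control. It fell by 0.25 (SE 0.07, limma adjusted p = 0.0409), a call kept in 6 of 15 other settings, while its second, dimmer probe set differed by 0.06.

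Among Slc1 genes, the carrier of alanine, serine, cysteine and threonine rose. Slc1a4, also called ASCT1, had 7.82, 8.47 and 8.59 in knockdown, against 7.72, 7.41 and 7.64 in control. Knockdown replicate 1 stood just above the controls and replicates 2 and 3 well above, so that the rise of 0.70, or 1.63-fold, had a wide error (SE 0.18, 3 arrays each, limma adjusted p = 0.0222). Without knockdown replicate 1 the rise was 0.94 (limma adjusted p = 5.45e-04). That array was the knockdown array furthest from the others in this gene, so the larger rise is no separate test. The call was lost without knockdown replicate 2 or 3 or control replicate 2 or 3, with adjusted p up to 0.0801. It was also lost with the mean of its probe sets (0.49). The other probe sets differed by 0.40 and 0.37 and did not pass. Slc1a5, the glutamine carrier ASCT2, had 6.72, 6.94 and 7.05 in knockdown, against 7.1, 6.95 and 7.22 in control, and differed by -0.19 (95% interval -0.42 to 0.04, limma adjusted p = 0.234). Slc1a6, a glutamate carrier known from cerebellar Purkinje neurons, had 6.65, 6.56 and 6.59 in knockdown, against 6.25, 6.34 and 6.29 in control, a rise of 0.31 (SE 0.06, limma adjusted p = 0.00699). The other glutamate carriers did not pass on their brightest sets, with 0.18 for Slc1a1, 0.03 for Slc1a2, 0.19 for Slc1a3 and 0.07 for Slc1a7. For Slc1a3, the glial GLAST, another probe set had 7.26, 7.56 and 7.19 in knockdown, against 6.68, 6.74 and 7.05 in control, and passed over all probe sets at 0.51 (limma adjusted p = 0.0264), and 4 further sets did not.

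Of the Slc38 carriers, which bring glutamine and other small neutral amino acids in with sodium, 1 rose and 1 fell. Slc38a1, or SNAT1, had 10.92, 10.98 and 10.84 in knockdown, against 10.57, 10.46 and 10.65 in control, a rise of 0.35 (SE 0.07, 3 arrays each, limma adjusted p = 0.0078). The probe set for this value can match several transcripts, and the other set, at 8.67, 8.84 and 8.93 in knockdown, against 8.67, 8.55 and 8.7 in control, differed by 0.17 and did not pass (adjusted p = 0.178 when sets of this kind are left out). Slc38a5, or SNAT5, had 6.4, 6.44 and 6.42 in knockdown, against 6.81, 6.77 and 6.64 in control. It fell by 0.32 (SE 0.07, limma adjusted p = 0.00819) with no overlap between the groups. Slc38a2, or SNAT2, was the brightest transporter of all, at 12.81, 12.68 and 12.54 in knockdown, against 12.67, 12.73 and 12.81 in control. It differed by -0.06 (95% interval -0.25 to 0.13, limma adjusted p = 0.665), although its dimmest of 3 probe sets fell by 0.35 over all probe sets (adjusted p = 0.00838).

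Among the genes chosen by symbol, carriers known from the lysosome did not pass, apart from the dim Slc7a14. Slc38a9, which reports lysosomal arginine to mTORC1, had 8.05, 7.97 and 7.89 in knockdown, against 7.84, 8 and 7.9 in control, a difference of 0.06. Slc36a1, a proton-coupled carrier of lysosomes and plasma membrane and the brightest of its family, had 7.72, 7.75 and 7.59 in knockdown, against 7.72, 7.52 and 7.51 in control, a difference of 0.10 (95% interval -0.08 to 0.29, limma adjusted p = 0.417). Slc38a7, which exports glutamine and asparagine from lysosomes, had 7.73, 7.74 and 7.76 in knockdown, against 7.9, 7.9 and 8 in control. Its groups did not overlap and its difference of -0.19 just missed the threshold (limma adjusted p = 0.0535). Slc36a2, Slc36a3 and Slc36a4 differed by -0.22, -0.04 and 0.30, Slc38a3 by 0.15, Slc38a6 by 0.08 and Slc38a10 by 0.14, none past the threshold.

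**Figure D3:**
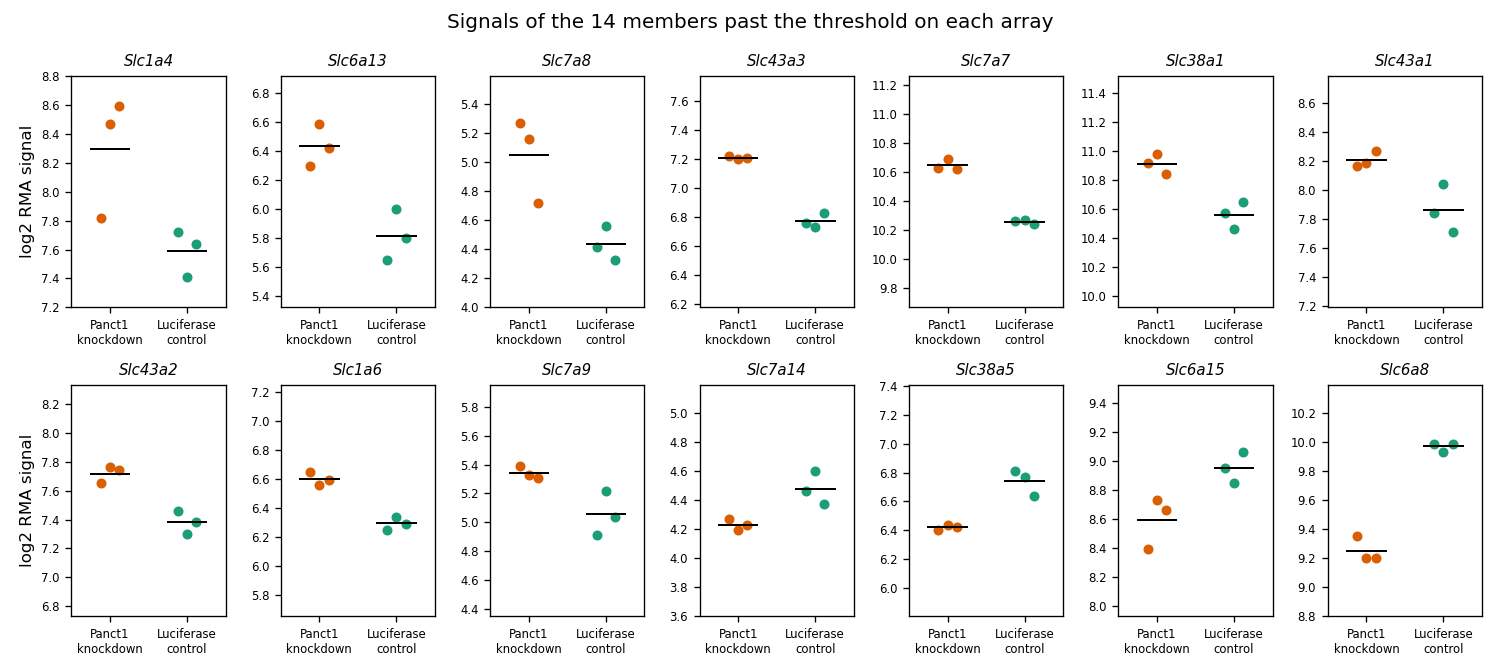
Each panel gives the log2 RMA signal of 1 transporter on the 3 Panct1 knockdown arrays and the 3 Luciferase control arrays, with a bar at the mean, ordered by difference from Slc1a4 to Slc6a8. Every panel spans the same height of 1.6 log2 units, and in none of the 14 do the groups overlap.

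Several bright carriers varied more between the knockdown arrays than between the controls. The gap between knockdown replicate 1 and the mean of the other knockdown arrays was over 0.4 on the log2 scale for 7 of 57 transporters (12.3%), beside 2.62% of all genes and 3.59% of other Slc genes, a limit chosen after these values were seen. Replicate 1 was lower by 0.77 for Slc7a1, by 0.71 for Slc1a4 and by 0.49 for Slc7a5, and Slc3a2, outside that limit, was lower by 0.40. It was higher for Slc7a6, Slc6a12, Slc6a3 and Slc36a4, by 0.49, 0.51, 0.49 and 0.46. The median range within knockdown was 0.22 for transporters and 0.16 for all genes, and within control 0.18 and 0.16. Slc7a7 and Slc38a1 did not share this spread, as the plot of arrays against the control mean shows.

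Knockdown replicate 1 also stood apart in the targets of ATF4 in the amino acid response. Of 27 measured members of that list, 18 had knockdown replicate 1 over 0.4 from the other knockdown arrays. Over all arrays 6 rose and 0 fell (22.2%, beside 24.2% of all genes), with a median difference of 0.25. By direction, 22.2% were higher and 0% lower, beside 12.9% and 11.3% of all genes. The median mean signal of the list was 9.01, and 33.9% of all genes with a mean signal of 8 or more passed in either direction. At an unadjusted limma p under 0.05, 10 were higher and 1 lower. All genes were not counted at that unadjusted threshold, so no result about the list is read from it. Without knockdown replicate 1 the counts were 14 and 0 (51.9%, beside 21.9% of all genes in the same setting) and the median 0.47. Replicate 1 was singled out for its distance from the others in these same genes, so the larger counts are no test of the list. Asns, asparagine synthetase, had 11.66, 12.09 and 12.44 in knockdown, against 11.66, 11.35 and 11.42 in control, a rise of 0.59 (SE 0.17, limma adjusted p = 0.039), with knockdown replicate 1 level with the highest control. Trib3, a pseudokinase induced by ATF4, had 8.18, 9.37 and 9.84 in knockdown, against 9.08, 8.63 and 8.94 in control. Chac1, which degrades glutathione, had 7.22, 8.82 and 9.35 in knockdown, against 9.05, 8.01 and 8.86 in control. In Trib3 and Chac1 knockdown replicate 1 was the lowest array and control replicate 2 the lowest control, the same order as in Slc7a1. Asns, Trib3, Chac1 and, in the plot, Cebpb were named after their values were seen. Of the 4 with the smallest p, Phgdh of serine synthesis rose by 0.47 and the stress factor Atf3 by 0.68, both with replicate 1 lowest of the knockdown arrays. Ddit4, an inhibitor of mTORC1, rose by 0.90 and Cth, which makes cysteine, by 0.44, with replicate 1 beside the others. Atf4 itself had 11.64, 12.18 and 12.44 in knockdown, against 12.37, 12.05 and 12.21 in control, and differed by -0.12 (limma adjusted p = 0.687). What sets replicate 1 apart was not tested.

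**Figure D4:**
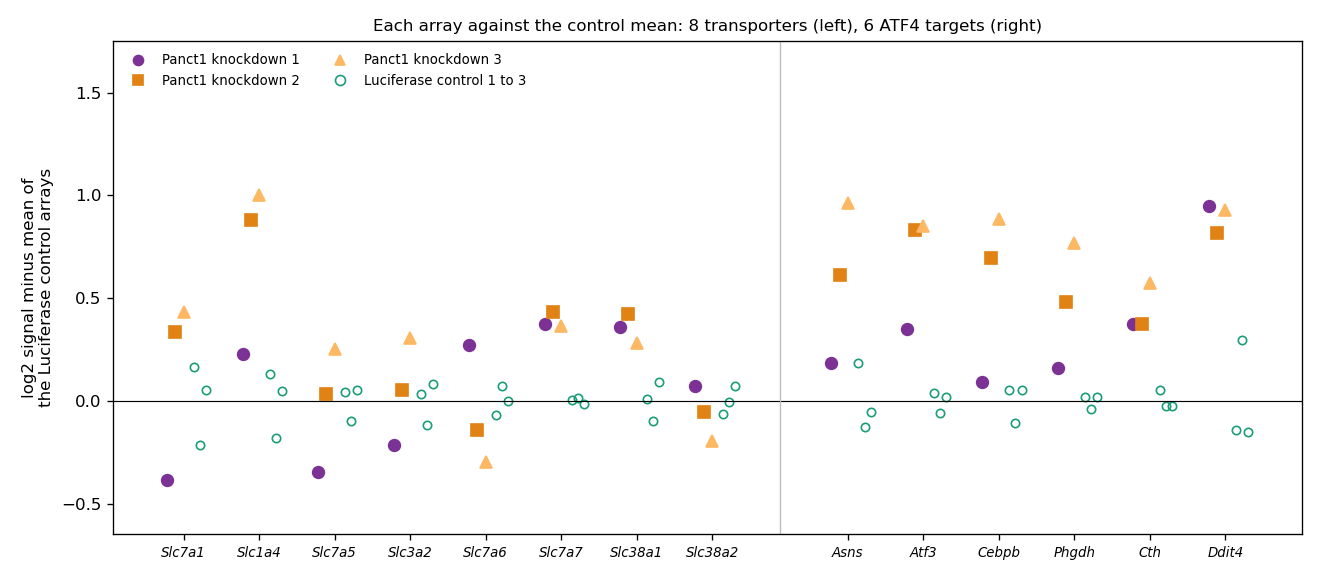
Points give the log2 signal of each array minus the mean of the 3 Luciferase control arrays, for 8 transporters on the left and 6 ATF4 targets on the right, with filled symbols for the knockdown replicates and open circles for controls. Knockdown replicate 1 lies below the other knockdown replicates for Slc7a1, Slc1a4, Slc7a5, Slc3a2, Asns, Atf3, Cebpb and Phgdh, and beside or above them for Slc7a6, Slc7a7, Slc38a1, Slc38a2, Cth and Ddit4.

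ATF4 is known to bind, with a C/EBP partner, a composite element that resembles TGATGNAA, and the promoters of transporter genes were searched for these letters and the reverse complement TTNCATCA. RefSeq windows of 300 bases around the start of transcription (build GRCm38.p6) were at hand for 40 of the 57 genes, and 4 of the 40 (10%) held a match, beside 4.51% of 27025 gene symbols. Those 4 were Slc1a4 and Slc7a7, which rose, and Slc7a11 and Slc6a21, which did not pass. Of 10 genes past the threshold with a window, 2 held a match. A match is a description of letters and not of binding. The windows of Slc1a4, Slc7a7 and Slc7a11 are shown because they set a carrier with a low replicate 1, a tight riser and a dim gene side by side, all in the direction of transcription on the minus strand, with matches in capitals. The mouse Slc7a11 promoter is known for a pair of such elements, and its window held 2 matches in opposite orientations. The Slc7a7 gene had 5 windows, some overlapping, and the one with the most matches is given; its match at -1 is the same stretch as the single match of another window.
Slc1a4, chr11:20332664-20332963: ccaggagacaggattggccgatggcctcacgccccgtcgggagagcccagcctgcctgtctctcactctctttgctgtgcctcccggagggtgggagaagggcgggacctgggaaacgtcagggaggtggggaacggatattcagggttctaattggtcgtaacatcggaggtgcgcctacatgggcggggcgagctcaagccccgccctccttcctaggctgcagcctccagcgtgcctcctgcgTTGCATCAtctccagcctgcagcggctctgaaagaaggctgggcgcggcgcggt
Slc7a7, chr14:54417895-54418194: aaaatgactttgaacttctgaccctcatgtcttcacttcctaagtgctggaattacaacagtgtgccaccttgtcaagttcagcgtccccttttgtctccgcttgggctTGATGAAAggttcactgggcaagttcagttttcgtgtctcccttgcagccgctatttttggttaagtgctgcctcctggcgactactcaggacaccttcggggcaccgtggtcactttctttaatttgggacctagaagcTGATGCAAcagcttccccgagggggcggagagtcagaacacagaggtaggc
Slc7a11, chr3:50443564-50443863: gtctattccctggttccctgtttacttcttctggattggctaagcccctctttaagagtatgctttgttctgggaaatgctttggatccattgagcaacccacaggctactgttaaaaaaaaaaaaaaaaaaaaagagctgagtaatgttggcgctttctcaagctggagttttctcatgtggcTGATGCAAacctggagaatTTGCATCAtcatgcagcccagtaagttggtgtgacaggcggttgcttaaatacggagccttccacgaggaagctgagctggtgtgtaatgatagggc

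Genes that handle amino acids beside the transporters moved one by one. Of 34 measured genes of amino acid sensing by mTORC1 and GCN2, 8 rose and 5 fell (38.2%, beside 24.2% of all genes), with a median of 0.02. Bright genes passed more often: 33.9% of all genes with a mean signal of 8 or more did, and the median mean signal of this list was 9.45. Sesn3, a sestrin that restrains mTORC1, rose by 0.85 and Castor2, of the arginine sensor pair, by 0.65. Sec13 of the GATOR2 complex rose by 0.49 and Eif2ak4, which encodes GCN2, by 0.43. Mtor, Tsc1, Lamtor5 and Seh1l also rose, by 0.30, 0.31, 0.24 and 0.30. The 5 that fell were Castor1 by 0.25, Wdr59 by 0.28, Tsc2 by 0.24, Mlst8 by 0.26 and Lamtor3 by 0.21. Sesn1, another sestrin, differed by -0.36 without passing. Among 19 cytosolic aminoacyl-tRNA synthetases 0 rose and 2 fell. That is 10.5%, beside 24.2% of all genes and 33.9% of all genes with a mean signal of 8 or more. The median mean signal of this list was 11.88. By direction, 0% were higher and 10.5% lower, beside 12.9% and 11.3% of all genes. Those that fell were Farsa, a subunit of the phenylalanine enzyme, by 0.67, and Kars, the lysine enzyme, by 0.27. The counts were the same at an unadjusted limma p under 0.05, a threshold at which all genes were not counted. Hars and Iars differed by 0.11 and 0.20 without passing. In this list 6 genes had knockdown replicate 1 over 0.4 from its fellows. Without that array 1 rose and 2 fell (15.8%, beside 21.9% of all genes in the same setting).

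A list of 19 further measured carriers, of other families apart from Slc6a20a and Slc6a20b, had 2 that rose and 5 that fell (36.8%, beside 24.2% of all genes), with a median of -0.05. Slc6a20a and Slc6a20b, which carry proline and related amino acids, differed by -0.05 and -0.15 without passing. Slc25a12, the mitochondrial aspartate and glutamate carrier, had 9.52, 9.44 and 9.42 in knockdown, against 10.29, 10.38 and 10.42 in control. It fell by 0.90 (SE 0.07, 3 arrays each, limma adjusted p = 3.43e-05), more than any of the 57 transporters. Slc25a15, the mitochondrial ornithine carrier, fell by 0.56. Slc16a10, the aromatic amino acid carrier TAT1, had 7.15, 7.31 and 7.26 in knockdown, against 6.61, 6.67 and 6.42 in control, a rise of 0.67, and the lysosomal exporter Slc66a1 rose by 0.25. Without knockdown replicate 1 the counts of this list were 2 and 2 (21.1%, beside 21.9% of all genes in the same setting).

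Enzymes of amino acid breakdown and one-carbon metabolism rose in 3 and fell in 5 of 21 measured genes, with a median of -0.07. That is 38.1%, beside 24.2% of all genes and 33.9% of all genes with a mean signal of 8 or more. The median mean signal of the list was 11.38. The branched-chain aminotransferases went opposite ways. Bcat1, the cytosolic one, had 11.92, 12.07 and 12.1 in knockdown, against 11.43, 11.1 and 11.39 in control, a rise of 0.72 (SE 0.10, limma adjusted p = 8.67e-04). Bcat2, the mitochondrial one, had 10.26, 10.32 and 10.48 in knockdown, against 11.25, 11.27 and 11.19 in control, and fell by 0.88 (SE 0.07, limma adjusted p = 6.82e-05). Arg2, mitochondrial arginase, fell by 0.95, and Glud1, glutamate dehydrogenase, rose by 0.36. Of 9 measured partners of the transporters, with a median mean signal of 11.27, 1 rose and 2 fell. That is 33.3%, beside 24.2% of all genes and 33.9% of all genes with a mean signal of 8 or more. Lgals3, galectin-3, which binds the sugar chains of surface proteins including CD98, fell by 1.11, Sgk1, a kinase that activates several carriers, fell by 0.33, Cd44, which associates with xCT, rose by 0.56 and Itgb1, the integrin partner of CD98, differed by 0.20 without passing.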

How the data were processed

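The authors deposited 1 table of log2 RMA signals from Affymetrix mouse expression arrays of total RNA, with 45101 probe sets and 6 arrays. Per the submitters' processing notes, GCOS 1.4 and RMA were used, and RMA corrects background, quantile-normalises and summarises the probes of a set, which compresses differences of dim sets. The number of arrays limits the precision. Names came from a platform annotation table after 64 control sets were left out: 34945 sets had 1 symbol, 932 several and 9160 none. The brightest set with 1 symbol stood for each of 18193 genes. One further gene matching the symbol pattern is not reported here. Groups came from the titles. Differences were fitted with limma 3.58.1 (lmFit, eBayes, R 4.3.3) on all genes with group as the only term, two-sided, with Benjamini-Hochberg adjustment and a threshold of 0.05, after the script was tested on simulated data. Named are transporters past the threshold, the brightest of each family, fixed heavy and light chains, glutamine, arginine and lysosomal carriers, and the 4 genes of each list with the smallest p. Other members are named to account for all 57. Members, lists and settings were chosen with earlier results of these data known. Alternatives were a replicate block, 2 other scalings, an intensity trend with robust variance, a filter on dim sets, array weights, leaving out each array, other choices of probe set, updated symbols and a minimum of 1.5-fold.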

Additional observations from a re-analysis of the deposited data

How the results depend on the processing

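A minimum of 1.5-fold left 4 transporters and 1227 genes, beside 14 and 4404. Leaving out 1 array gave 10 to 12 transporters and 3133 to 3986 genes, and array weights gave 20 and 5730. Slc6a8, Slc6a13, Slc7a7, Slc7a8, Slc1a6, Slc38a5, Slc43a2 and Slc43a3 kept direction and call in the 16 alternatives other than the 1.5-fold minimum, which kept Slc1a4, Slc6a8, Slc6a13 and Slc7a8. Other calls were lost as given with each gene. Calls were gained in some alternatives for Slc1a1, Slc1a3, Slc6a6, Slc6a16, Slc6a19, Slc7a1, Slc7a13, Slc36a2, Slc38a3 and Slc38a7. Among genes not past the threshold, small differences changed sign on leaving out 1 array: Slc3a2 ranged from -0.082 to 0.18, Slc3a1 from -0.033 to 0.11, Slc7a5 from -0.16 to 0.14, Slc7a6 from -0.22 to 0.065, Slc7a10 from -0.023 to 0.10, Slc7a1 from -0.027 to 0.38 and Slc38a2 from -0.13 to 0.0083. Slc3a1 was -0.039 with array weights and Slc7a2 -0.024 as the mean of its probe sets. Fewer arrays or other weights are the construction of these settings, and other causes were not tested. The labels do not say whether the replicate numbers pair the arrays. Deviations of same-numbered arrays from their group means correlated at -0.19, -0.26 and -0.10, and no array correlated best with its own number. Deviations of arrays within a group depend on each other, so these correlations are constrained and cannot settle the pairing. Knockdown replicate 1 correlated best with control replicate 2 (0.27), knockdown replicate 2 with control replicate 3 (0.28) and knockdown replicate 3 with control replicate 1 (0.21). What lies behind these correlations was not tested. With the replicate number as a block 12 transporters and 3496 genes passed, without Slc7a9 and Slc7a14. Dim signals in 1 or both groups limit Slc6a16, Slc7a8, Slc7a11, Slc7a12, Slc7a14 and Slc6a14.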
